A study of Homo sapiens with 6 samples.

Results

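Hyaluronan is a long, unsulfated sugar polymer of the extracellular matrix, and 9 genes for making, binding and breaking it down were followed here in LX-2, an established line of human hepatic stellate cells. They are the synthases HAS1, HAS2 and HAS3, the receptors CD44, HMMR and LAYN, and the degradation genes HYAL1, HYAL2 and CEMIP, taken by symbol from the 60669 genes of the authors' table. LX-2 cells, labelled as activated stellate cells of wild-type genotype, were transfected for 48 h with a control siRNA (siCTL) or with 1 siRNA against ADAMTS12 (siADAMTS12), a gene for a secreted matrix metalloprotease. Poly(A) RNA was sequenced from 3 libraries in each group, numbered 1 to 3. Every group thus carries a lipid-transfected siRNA, and only 1 siRNA sequence stands for the loss of ADAMTS12. The labels do not say whether cultures were separate. The p-values therefore measure only the spread between these libraries, which may be technical.

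Synthases sit in the plasma membrane and add glucuronic acid and N-acetylglucosamine in turn, pushing the chain out of the cell as it grows. CD44 is the main surface receptor, while hyaluronidases and CEMIP cut the chain or help to cut it. In injured liver, activated stellate cells are a major source of hyaluronan, and sinusoidal endothelial cells clear it through other receptors.

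With siADAMTS12, 5 of the 9 hyaluronan genes fell and 0 rose. CEMIP, a hyaluronan-binding protein needed for breakdown of the polymer by fibroblasts, fell 3.27-fold. HAS2, HMMR, LAYN and CD44 fell 1.54-, 1.53-, 1.49- and 1.28-fold. HAS3, HYAL1 and HYAL2 did not pass the test, and HAS1 was too low to be tested. Among the 15637 genes with a mean of at least 10, 15.5% were lower and 11.5% higher at an adjusted p under 0.05 in limma, 27% in either direction. Of the hyaluronan genes, 8 passed that filter on low values, and their median log2 fold change was -0.46, against 0.005 over all genes tested. The hyaluronan genes were chosen with earlier results of these data known, so this difference is only described.

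Some facts of the whole comparison bear on these values. ADAMTS12, the target, went from 13122 ± 782 to 3740 ± 320 normalized counts (SD, n = 3), which left 28.5%. Deposited columns summed to 33.6 to 34.1 M normalized counts in the siCTL libraries and to 30.7 to 31.4 M in the siADAMTS12 libraries. Rescaling the columns to equal sums moved the median log2 fold change of all genes to 0.13, and the split of calls went from 2424 lower and 1798 higher to 1546 lower and 3868 higher. Of 13 stellate cell markers, 12 passed the filter, 5 fell and 0 rose, beside 15.5% lower and 11.5% higher of all genes. With the replicate number as a block 8 fell and 0 rose, where 3059 of 15637 genes were lower and 2423 higher. The markers summed to 432963 to 473276 with siCTL and 341108 to 365751 with siADAMTS12, most of it VIM and COL1A1. VIM fell from 201651 to 137566 on average, and COL1A1, which did not pass without the block, went from 114287 to 100885. The part of these marker changes in the hyaluronan results was not tested. Desmin (DES) was at 0 in 5 of the 6 libraries. Hepatocyte markers summed to 17 to 19 with siCTL and 22 to 28 with siADAMTS12, with TTR and APOB at 0 in all libraries, and macrophage markers to 30 to 41 and 25 to 28. Endothelial markers summed to 139 to 157 and 65 to 79, with CLEC4G, LYVE1 and STAB2 at 0. Cholangiocyte markers summed to 1874 to 2232 and 1733 to 2071, nearly all of it SOX9 and KRT7. As bulk RNA was measured, fewer cells of a kind and less RNA per cell cannot be told apart.

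The siRNA and the places where its guide could pair are shown first, because a guide can silence other transcripts through a short match to its seed (bases 2 to 8). In the sense strand from the labels, capitals mark the stretch that any such target would share, and in the guide, its complement without overhangs, they mark the seed.
sense strand: gccaaaguuugGAGGGAAa
guide strand: uUUCCCUCcaaacuuuggc
One 3′ UTR per gene was searched for GAGGGAA, the match to guide bases 2 to 8, and for AGGGAA, the match to bases 2 to 7, on the transcript's own strand. The longer match contains the shorter one. GAGGGAA was in 15.6% of 12606 genes, of which 35.9% were lower, against 15.01% of the genes without it. AGGGAA was in 41.4% of these genes, of which 27.1% were lower, against 12.0% of the genes without it.

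None of the 5 hyaluronan genes that fell held GAGGGAA in the 3′ UTR searched. Of the tested hyaluronan genes, HAS3 alone held it, once, beside 2 further AGGGAA matches, and HAS3 did not pass the test. Not expressed here, HAS1 held the longer GAGGGAAA. The 3′ UTRs of CD44 (3069 bases), HMMR (777), LAYN (605), HYAL1 (594) and HYAL2 (339) held neither match. Among UTRs within 20% of the length of that of CD44, 25.4% held GAGGGAA and 70.1% held AGGGAA. CEMIP (2852 bases) held AGGGAA at 2 places, HAS2 (1993 bases) at 1 place, and LAYN only in UTRs of 2 of its 5 coding transcripts. Among UTRs of like length, 68.0% for CEMIP and 57.0% for HAS2 held AGGGAA. The sites of CEMIP, HAS3 and LAYN are given 5′ to 3′ on GRCh38, to show which match each holds. Matching bases are in capitals, for LAYN also the A that follows AGGGAA, opposite guide base 1. Both sites of CEMIP, which fell most of these genes, are AGGGAA. For HAS3 the site shown is GAGGGAA.
CEMIP, chr15:80949048-80949069, plus strand: gccctgatgggccaAGGGAAgg
CEMIP, chr15:80950101-80950122, plus strand: tttgctcttcatccAGGGAAct
HAS3, chr16:69115295-69115316, plus strand: gcaatgggtaaggGAGGGAAgg
LAYN, chr11:111560143-111560164, plus strand: gccctctcctcaccAGGGAAAc
Were the sense strand to act as a guide, its match to bases 2 to 8, ACTTTGG, lay in the 3′ UTRs of CEMIP and HAS2 and in 21.6% of all genes searched, and that of HAS2 was the longer ACTTTGGA. Among UTRs of like length, 37.1% for CEMIP and 25.5% for HAS2 held ACTTTGG. Of all genes with ACTTTGG 22.35% were lower, against 17.15% of the genes without it. These letters describe the transcripts, and their part in the falls was not tested.

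Before the effect of the siRNA, the genes differed widely in level, which is compared between genes only per kilobase (kb) of exon. CD44 was highest in siCTL libraries at 2707 ± 274 normalized counts per kb (SD, n = 3). LAYN (847 ± 60.8) and HAS2 (806 ± 162) came next and did not differ beyond their spread, followed by HMMR (489 ± 58.2) and HYAL2 (235 ± 23.5). CEMIP stood at 77.4 ± 6.31, HAS3 at 11.9 ± 1.86 and HYAL1 at 3.51 ± 0.639 per kb. HAS2 was thus the main synthase transcript in every library. With siADAMTS12 the order of the means was kept, from CD44 at 2107 ± 70.3 down to HYAL1 at 3.83 ± 0.845 per kb. LAYN (570 ± 34.9) and HAS2 (528 ± 136) again did not differ beyond their spread, the lowest HAS2 library lay within the range of HMMR (320 ± 50.9), and CEMIP stood at 23.7 ± 2.96.

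**Figure D1:**
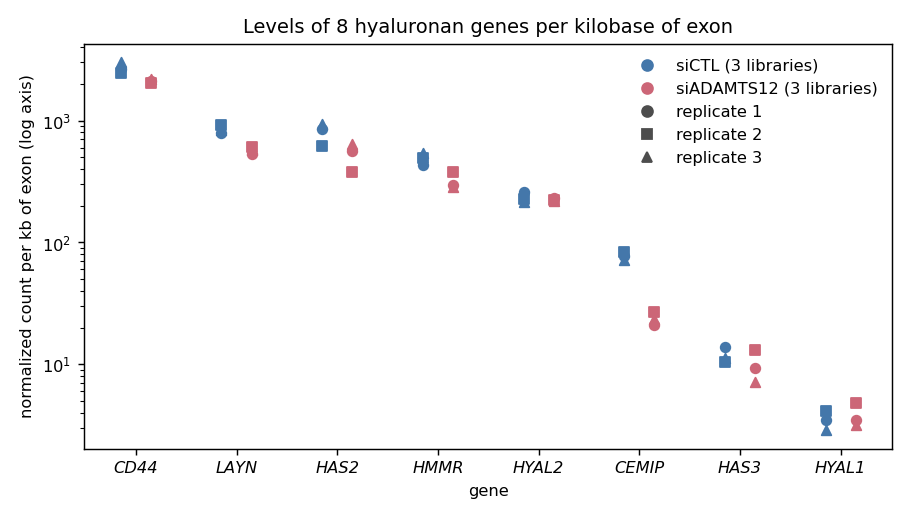
Normalized counts per kb of exon (log axis) of the 8 hyaluronan genes with a mean of at least 10, in each siCTL (blue) and siADAMTS12 (red) library; marker shapes give the replicate number. CD44 lies highest in all libraries, HAS3 and HYAL1 lie lowest, and CEMIP shows the widest gap between the groups.

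Among the synthases, HAS2 makes the high-molecular-weight hyaluronan of most mesenchymal cells. Its normalized counts were 3602, 2613 and 3911 with siCTL (replicates 1, 2 and 3, as in all such series of values) and 2377, 1580 and 2684 with siADAMTS12. Replicate 2 was the lowest library of both groups, and the groups overlapped because siADAMTS12 replicate 3 lay above siCTL replicate 2. Within each replicate number, the siADAMTS12 library held 66.0%, 60.5% and 68.6% of the siCTL value. The log2 fold change was -0.62 ± 0.18 (SE; limma adjusted p = 0.0263). This call ended without siCTL replicate 1 (adjusted p = 0.0731), siCTL replicate 3 (0.112) or siADAMTS12 replicate 2 (0.0624). It also ended without the filter (0.0534), with columns rescaled to equal sums (0.0661) and without a variance trend (0.126). With the replicate number as a block, which none of those fits used, the SE was 0.054 and the limma adjusted p 3.05e-05. Over all alternatives the adjusted p ran from 3.05e-05 to 0.126. Without siADAMTS12 replicate 2 the log2 fold change was -0.40.

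HAS2-AS1, a non-coding gene on the opposite strand, shares 201 exon bases with HAS2. Its values were 33, 29 and 33 with siCTL and 22, 14 and 25 with siADAMTS12, so the groups did not overlap. Its log2 fold change was -0.65 ± 0.27 (SE), and it did not pass the test (adjusted p = 0.103). The library kit keeps strand, per the labels, but the strand setting of the counting is not given in the sources used here, and without it reads in the shared bases cannot be assigned. By root mean square distance over the 6 libraries, after centring on the siCTL mean, the 2 genes of a mean of at least 50 most like HAS2 were SERPINB2 (distance 0.067 on the log2 scale), an inhibitor of plasminogen activators, and the cytokine IL6 (0.092). SERPINB2 was at 2245, 1443 and 2418 with siCTL and at 1470, 900 and 1641 with siADAMTS12 (adjusted p = 0.0582), and IL6 at 517, 392 and 605 and then 313, 251 and 383 (adjusted p = 0.0134). Both also had their lowest value of each group in replicate 2, which their choice by likeness to HAS2 favours.

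**Figure D2:**
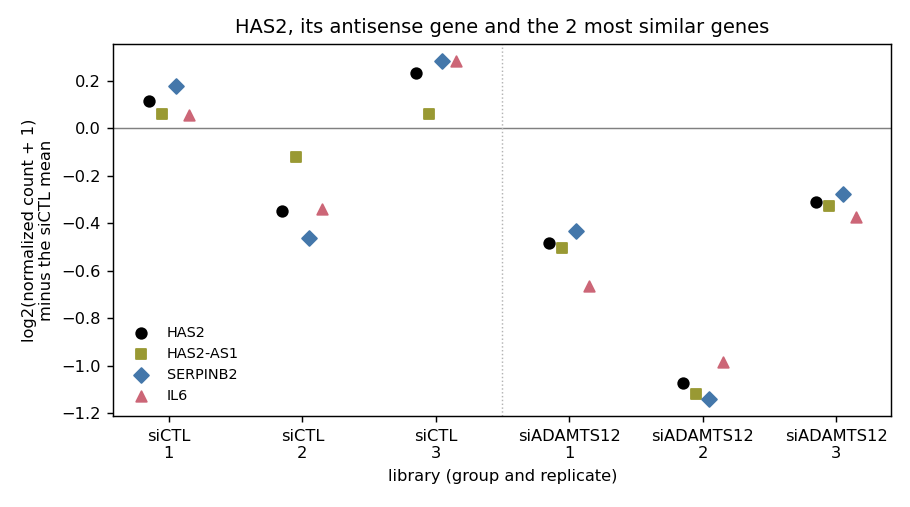
Log2(normalized count + 1) minus the siCTL mean (vertical axis) of HAS2, HAS2-AS1, SERPINB2 and IL6 in each of the 6 libraries (horizontal axis). All 4 genes are lowest in replicate 2 of each group, and HAS2 lies below its siCTL mean in all siADAMTS12 libraries. SERPINB2 and IL6 were chosen for their likeness to HAS2 over these libraries.

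HAS3, which makes shorter chains, was at 74, 55 and 60 with siCTL and at 49, 70 and 38 with siADAMTS12. The groups overlapped, with siADAMTS12 replicate 2 above 2 of the siCTL libraries. Its log2 fold change was -0.30 with a 95% interval from -0.81 to 0.22 (adjusted p = 0.390), and from -0.52 to -0.092 with 1 library left out, so a fall of the size seen for HAS2 could not be told from no change at this level. HAS1 had a value of 1 in siADAMTS12 replicate 1 and 0 elsewhere.

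Among the receptors, CD44 links hyaluronan to the actin cytoskeleton. Its values were 26688, 24559 and 30007 with siCTL and 20972, 20431 and 21826 with siADAMTS12. All siADAMTS12 libraries lay below all siCTL libraries, and they varied less among themselves than the siCTL libraries did. The log2 fold change was -0.36 ± 0.08 (SE; adjusted p = 0.00598), the smallest of the 5 falls. After quantile normalization it was -0.15 and did not pass (adjusted p = 0.153, where its alternatives ran from 0.000767 up to this value).

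LAYN, or layilin, is a membrane lectin that binds hyaluronan outside the cell and talin inside it. It was at 2504, 2875 and 2609 with siCTL and at 1673, 1890 and 1809 with siADAMTS12, with no overlap. Its log2 fold change was -0.57 ± 0.07 (SE; adjusted p = 0.000156). Within replicate numbers the siADAMTS12 library kept 66.8%, 65.7% and 69.3% of the siCTL value, a narrow range beside that of HMMR.

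HMMR binds hyaluronan at the surface and, inside dividing cells, works at the mitotic spindle. Its values were 1687, 1939 and 2144 with siCTL and 1158, 1490 and 1130 with siADAMTS12. The groups did not overlap, and siADAMTS12 replicate 2 was the highest of its group. The log2 fold change was -0.62 ± 0.11 (SE; adjusted p = 0.00202), with 68.6%, 76.8% and 52.7% of the siCTL value left within replicate numbers.

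The start of HMMR carries letters found at many mitotic genes, and its promoter, from 250 bases before to 50 bases after the start in RefSeq on GRCh38.p14 (chr5:163460382-163460681, plus strand), is shown for that reason. Capitals mark CCAAT and TTTGAA on either strand; where they run on, 2 matches touch or overlap.
HMMR promoter: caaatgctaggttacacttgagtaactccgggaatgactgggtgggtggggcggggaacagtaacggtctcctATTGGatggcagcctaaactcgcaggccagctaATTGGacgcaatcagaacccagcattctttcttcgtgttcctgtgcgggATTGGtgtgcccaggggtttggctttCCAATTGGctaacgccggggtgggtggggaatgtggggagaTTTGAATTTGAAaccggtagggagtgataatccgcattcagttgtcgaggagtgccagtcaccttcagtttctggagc
It held 5 CCAAT matches and 2 TTTGAA matches. Both motifs together were in 5.90% of 35116 promoters, in 12 of 24 promoters of a list of HMMR partners and other mitotic genes, and in 1 of 7 hyaluronan gene promoters, that of HMMR. The window of CD44 and that of CEMIP held neither. HAS2 and LAYN, which also fell, had no promoter entry and were not searched.

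Of the 24 genes of that mitotic list, 2 fell, 1 rose and 21 did not pass, with a median log2 fold change of -0.10. That is 12.5% called, beside 27% of all genes tested (15.5% lower and 11.5% higher). With the replicate number as a block 4 fell and 1 rose, where 3059 of all 15637 genes were lower and 2423 higher. TOP2A, the topoisomerase of condensing chromosomes, was at -0.36 (adjusted p = 0.00779) and TPX2, a spindle factor that binds HMMR, at -0.22 (adjusted p = 0.0359). The kinase PLK1 rose by a log2 value of 0.35 (adjusted p = 0.00482). After quantile normalization TOP2A and TPX2 did not pass (adjusted p = 0.119 and 0.592), and TPX2 lost its call in 8 of its 14 alternatives. Whether the fall of HMMR differed from the list was not tested.

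Among the degradation genes, CEMIP was at 587, 639 and 543 with siCTL and at 159, 204 and 178 with siADAMTS12. The highest siADAMTS12 library held less than the lowest siCTL library by a wide margin, and 27.1%, 31.9% and 32.8% of the siCTL value were left within replicate numbers. The log2 fold change was -1.71 ± 0.11 (SE; adjusted p = 1.21e-06), rank 33 among the genes that fell, where ADAMTS12 was at rank 21. MESD, a chaperone gene on the opposite strand, shares 224 of the 7621 exon bases of CEMIP, and went from 3605 ± 199 to 2729 ± 176 (SD, n = 3; log2 fold change -0.40, adjusted p = 0.00118).

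HYAL2, a hyaluronidase anchored at the cell surface, was at 1189, 1036 and 983 with siCTL and at 1060, 1014 and 990 with siADAMTS12. The siADAMTS12 values lay inside the siCTL range. Its log2 fold change was -0.06 with a 95% interval from -0.24 to 0.12 (adjusted p = 0.622), an interval that leaves out falls of the size of HAS2, LAYN and HMMR. The sign turned with columns rescaled to equal sums (0.06) and without siCTL replicate 1 (0.02). TUSC2, which shares 509 exon bases with HYAL2 on the same strand, went from 1973 ± 80.4 to 762 ± 79.2 (SD, n = 3; adjusted p = 5.53e-07), and how reads in the shared bases were assigned is not given in the sources used here. HYAL1, a lysosomal hyaluronidase, was at 11, 13 and 9 and then 11, 15 and 10, with a 95% interval of its log2 fold change from -0.64 to 0.86. A change of that size was not detectable at this level, and its sign turned without siCTL replicate 3 (-0.015) or siADAMTS12 replicate 2 (-0.049).

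**Figure D3:**
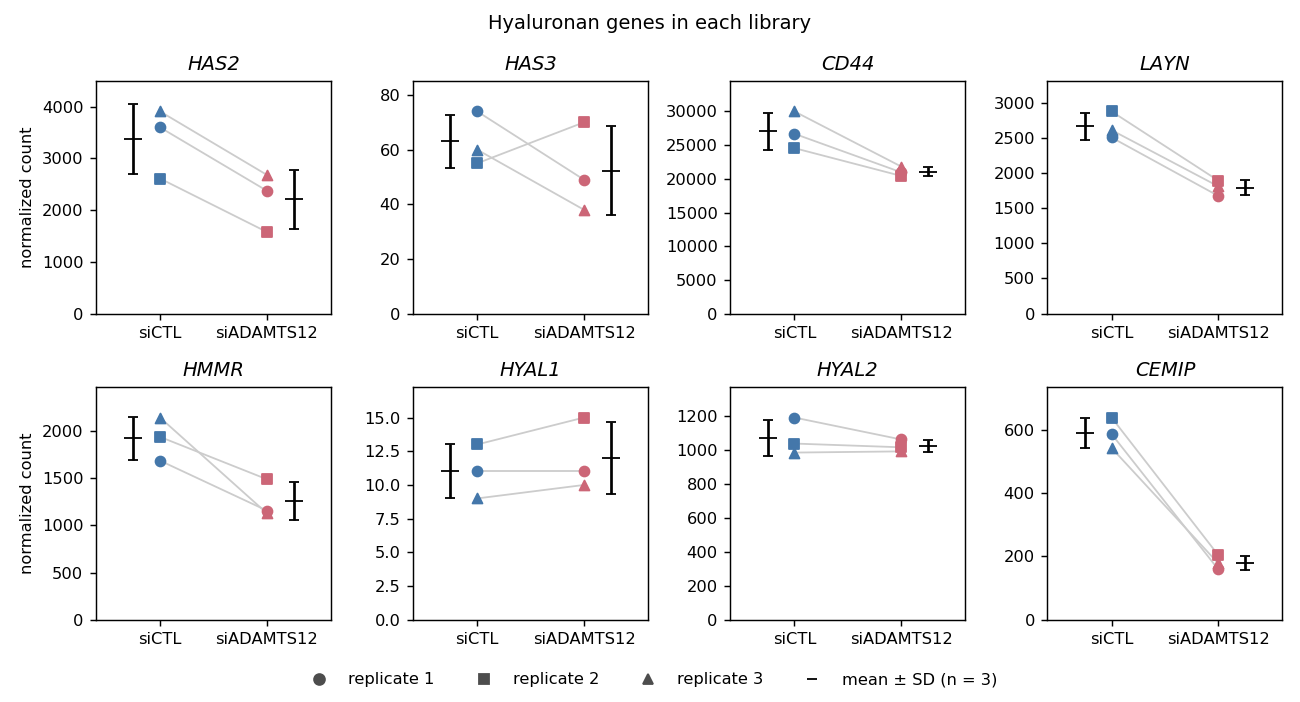
Normalized counts of the 8 hyaluronan genes with a mean of at least 10 (vertical axes from 0) in each siCTL (blue) and siADAMTS12 (red) library; grey lines join libraries with the same replicate number, and black bars are the mean ± SD (n = 3). CEMIP, LAYN, HMMR and CD44 show no overlap between groups, HAS2 falls within every replicate number, and HAS3, HYAL1 and HYAL2 overlap.

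In these 8 genes, the groups did not overlap in 4, where 40.9% of all genes tested showed no overlap. For CEMIP, LAYN, HMMR and CD44 the exact 2-sided permutation p was 0.1, the smallest that 3 against 3 libraries allow, so this test could not pass 0.05. It was 0.2 for HAS2. Neither the overlap nor this test used the replicate numbers. CEMIP, LAYN and HMMR stayed past the limma threshold in all 14 alternatives run for each.

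Other genes with like profiles were found by the same distance. For CEMIP they were ECE1, the endothelin-converting enzyme (distance 0.096; 12549 falling to 3831 on average), and FAM8A1 (0.114). SH3RF1 (0.022) and PALM2AKAP2 (0.031) were nearest to CD44. SCARA3 (0.038) and PAGR1 (0.044) were nearest to LAYN, and RAB15 (0.055) and TRIM6 (0.060) to HMMR. These distances rest on 6 libraries in 2 groups.

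Further genes of the hyaluronan pathway were described by 7 lists, chosen with earlier results of these data known. Of their 99 genes, 79 passed the filter, 29 fell and 4 rose, beside the 15.5% and 11.5% of all genes. With columns rescaled to equal sums 22 fell and 9 rose, and after quantile normalization 22 fell and 7 rose. With the replicate number as a block 39 fell and 5 rose, where 3059 of all 15637 genes were lower and 2423 higher. The shares over all genes also stand beside the counts of each list below. GAGGGAA was in the 3′ UTRs of 7 of the tested genes, where 15.6% of all genes searched held it. Of these 7, PGM1, TLR4, SUSD5 and HABP4 fell, HAPLN3 rose, and ARHGEF12 and MKI67 did not pass. Of all genes that held GAGGGAA, 35.9% were lower.

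Of 13 genes for enzymes that build the 2 sugar donors of the synthases, 7 fell, 1 rose and 5 did not pass. Of all genes tested, 15.5% were lower and 11.5% higher. The median log2 fold change of the 13 genes was -0.27. UGDH, which makes UDP-glucuronic acid, was at 2783, 2683 and 2805 with siCTL and at 1762, 2049 and 1855 with siADAMTS12 (log2 fold change -0.55 ± 0.07 SE, adjusted p = 0.000133). PGM1, upstream on the glucose side, and UAP1, which makes UDP-N-acetylglucosamine, were at -0.58 and -0.49. GFPT1, the first enzyme on the hexosamine side, rose from 2186, 1861 and 1987 to 6116, 5687 and 5948 (1.56 ± 0.07 SE, adjusted p = 6.52e-08). None of these 4 genes overlapped between groups, which their choice by smallest adjusted p favours. Of the 13 genes, 10 did not overlap, where 40.9% of all genes tested showed no overlap. GFPT2, the paralog of GFPT1, fell by 0.49 on the log2 scale (adjusted p = 0.000784) and is named because of its direction, after its values were seen.

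**Figure D4:**
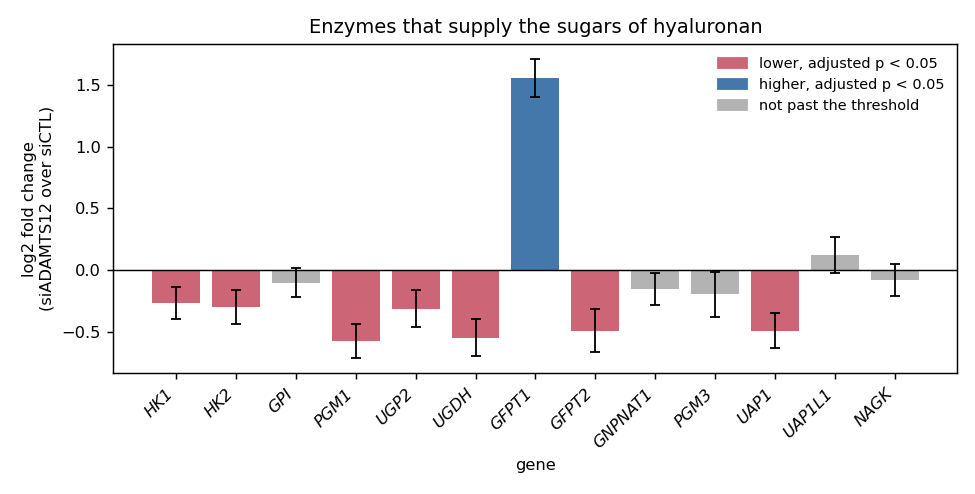
Log2 fold change (vertical axis, siADAMTS12 over siCTL) of 13 genes for the supply of hyaluronan's sugars, with 95% intervals; red bars fell, blue rose and grey did not pass the test. GFPT1 stands at 1.56, while UGDH, PGM1 and UAP1 lie between -0.49 and -0.58.

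Other receptors were partly silent. LYVE1 and STAB2, the clearance receptors of sinusoidal endothelium, were at 0 in all libraries, and 4 of the 7 genes of this list passed the filter. SUSD5, a membrane protein with a hyaluronan-binding link domain, went from 816 ± 15.1 to 276 ± 21.7 (SD, n = 3; log2 fold change -1.56 ± 0.09 SE, adjusted p = 3.12e-07). The innate immune receptor TLR4, which can respond to hyaluronan fragments, went from 1149 ± 106 to 770 ± 51.8 (-0.58 ± 0.09 SE, adjusted p = 0.000503).

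Of 5 other degradation genes tested, 3 fell and 0 rose, beside 15.5% lower and 11.5% higher of all genes. CEMIP2, the membrane-bound relative of CEMIP, was at 5080, 5081 and 4868 with siCTL and at 3098, 3160 and 2769 with siADAMTS12 (-0.74 ± 0.07 SE, adjusted p = 1.03e-05). Per kb of exon CEMIP2 stood at 520.5 in siCTL libraries, above the 77.4 of CEMIP. HYAL3 was at -0.40 (adjusted p = 0.00774).

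Genes listed as hyaluronan-binding, not all of them for matrix proteins, also moved. Of 19 listed genes, 7 passed the filter, 4 fell and 1 rose, beside 15.5% lower and 11.5% higher of all genes. The large proteoglycan VCAN, or versican, went from 6894 ± 493 to 4208 ± 207 (-0.71 ± 0.07 SE, adjusted p = 1.80e-05). PTX3, a pentraxin of the hyaluronan coat, was at 20963, 18345 and 20339 and then 14007, 9204 and 14072, again with its lowest values in replicate 2 (adjusted p = 0.00310). HABP4 was at -0.45 (adjusted p = 0.00196). The link protein HAPLN3, which fastens proteoglycans to hyaluronan, rose from 176 ± 14.5 to 274 ± 37.5 (0.63 ± 0.13 SE, adjusted p = 0.00380).

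Of 23 tested genes around CD44, 9 fell, 1 rose and 13 did not pass, beside 15.5% lower and 11.5% higher of all genes. With the replicate number as a block 14 fell and 2 rose, where 3059 of all 15637 genes were lower and 2423 higher. EZR, which ties CD44 to actin, went from 15090 ± 649 to 9027 ± 550 (-0.74 ± 0.07 SE, adjusted p = 1.04e-05). Of the same list, RDX was at -0.26 (adjusted p = 0.0142) and MSN at -0.004 (adjusted p = 0.978). Per kb of exon MSN stood at 6649 in siCTL libraries, above the 4515 of EZR. RDX and MSN were named after their values were seen. The Rac activator TIAM1 went from 1437 ± 66.0 to 567 ± 21.9 (-1.34 ± 0.07 SE, adjusted p = 2.19e-07). Proteases that can shed CD44 were lower, ADAM17 at -0.64 and MMP14 at -0.53 (adjusted p = 1.47e-05 and 7.98e-05). ANK3, an ankyrin, was the gene that rose, from 137 ± 24.6 to 299 ± 54.5, and is named because of its direction, after its values were seen. Of the genes paired with LAYN, the talins TLN1 and TLN2 fell by 0.29 and 0.49 on the log2 scale (adjusted p = 0.00689 and 0.000104), and TLN1 did not pass after quantile normalization (-0.044) or with equal sums (-0.16).

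**Figure D5:**
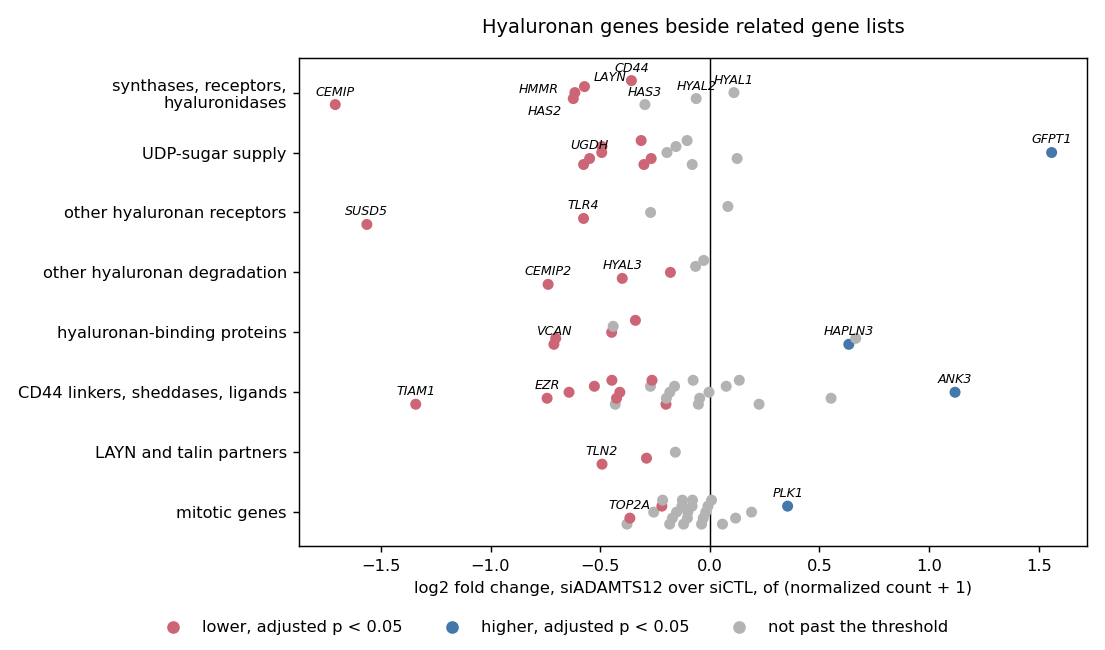
Log2 fold change (horizontal axis, siADAMTS12 over siCTL, of normalized count + 1) of tested genes in the hyaluronan set (top row) and in 7 related lists; red points fell, blue rose, and grey did not pass at an adjusted p of 0.05. CEMIP and SUSD5 lie farthest left, at -1.71 and -1.56, and GFPT1 farthest right, at 1.56.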

How the data were processed

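Poly(A) RNA of 6 LX-2 libraries was measured, 3 per group, per the labels. The deposited values are a score: the authors' normalized counts, written as whole numbers. STAR, HTSeq, DESeq2 and GRCh38 are named without roles in the submitters' processing notes. Not given in the sources used here: gene annotation, strand setting of the counting, read totals. Median-of-ratios factors of the deposited columns were 1.003 to 1.007, and no gene held 9 and 12 of the whole numbers between 1 and 40 in 2 columns, so reads were not rebuilt, no count model was used, and no counting interval is given.

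Genes with a mean of at least 10 were analysed as log2(value + 1), which understates the fold changes of low genes. limma 3.58.1 (R 4.3.3) used the 6 libraries, a group term alone and a variance trend on mean level, with 2-sided p-values adjusted by Benjamini-Hochberg over the genes kept and a threshold of 0.05. The fit was tested on simulated data. Per-kb levels divide by the union of GENCODE 29 exons. One 3′ UTR of at least 30 bases per gene was taken from GENCODE 29 on GRCh38 by APPRIS principal tag, basic set and UTR length. RefSeq promoters were matched by symbol for 7 of the 9 genes. Python 3.11.15, pandas 2.3.3, scipy 1.17.1 and matplotlib 3.10.9 were used.

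Deviations from the group means were correlated across genes between same-numbered libraries, at 0.37, 0.13 and 0.13 for replicates 1, 2 and 3, against -0.19 to 0.06 for different numbers. Each was above 0.1, the rule for pairing, which comes from the numbers in the labels.

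The members and lists were chosen with earlier results of these data known. Named genes are all members, ADAMTS12, HAS2-AS1, up to 4 called genes of each pathway list by adjusted p, and the 2 genes closest to each called member; 1 gene that this rule names is not reported here. MESD, TUSC2, ANK3, GFPT2, ARHGEF12, MKI67, MSN, RDX, VIM, COL1A1 and the 2 promoter motifs were added after values were seen.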

Additional observations from a re-analysis of the deposited data

How the results depend on the processing

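Each result was recomputed under 14 alternatives chosen with earlier results of these data known: other pseudocounts (0.5 and 8), no filter or a minimum mean of 50, quantile normalization, equal column sums, a replicate block, no variance trend, and each library left out. CEMIP, LAYN, HMMR and ADAMTS12 kept direction and call in all of them, with log2 fold changes of -1.80 to -1.58, -0.61 to -0.45, -0.74 to -0.49 and -1.88 to -1.69. HAS1 got no value, and HYAL1 none at a minimum mean of 50.

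With equal sums, 3868 genes were higher and 1546 lower, 9 pathway genes were higher, HAS2 was at -0.50 (adjusted p = 0.0661) and HYAL2 at 0.062. After quantile normalization 7 pathway genes were higher and CD44 was at -0.15 (adjusted p = 0.153). HAS2 was at -0.62 without the filter (adjusted p = 0.0534) and without the trend (0.126), and the cause was not tested. Leaving out 1 library gave -0.80 to -0.40 for HAS2 (adjusted p = 0.0120 to 0.112), -0.52 to -0.092 for HAS3, -0.049 to 0.23 for HYAL1 and -0.12 to 0.017 for HYAL2. With the replicate block, 3059 genes were lower and 2423 higher, 39 and 5 of the pathway genes, and the calls of the 8 genes were as without it; for HAS2 the SE was 0.054 (adjusted p = 3.05e-05), for CD44 adjusted p = 0.000767. For 23 other single genes, 299 values kept direction and call and 22 lost the call. Members lower numbered 4 or 5 in all alternatives. Low levels limit HAS1, HYAL1 and HAS3.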

Other observations

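NUSAP1 and PRC1, both mitotic genes, stood at 8.23 and 13.3 normalized counts per kb of exon on average in siCTL libraries, where MKI67, of the same list, stood at 1376. How the authors' counting treated overlapping genes is not given in the sources used here, so these low levels are uncertain. KDR, an endothelial growth factor receptor on the endothelial marker list, was at 120, 111 and 113 with siCTL and at 57, 53 and 50 with siADAMTS12 (limma adjusted p = 0.000280), while the other genes of that list had values of at most 27. These genes were chosen after their values were seen.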
